A study of Homo sapiens with 4 samples.

Results

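The chromobox (CBX) messages are the mRNAs of 7 related chromatin readers, and they were followed here in the medium of HEK293T cultures, a human cell line grown from embryonic kidney. The members were taken by gene symbol from the 61543 genes of the deposited count table: CBX2, CBX6, CBX7 and CBX8 of the Polycomb branch, and CBX1, CBX3 and CBX5 of the heterochromatin branch. In the EPN24-Cas13d group, with 2 libraries, the RNA-binding CRISPR protein Cas13d was joined to EPN24, a protein that assembles into nanocages secreted with the RNA they hold. In the EPN24 group, also with 2 libraries, the nanocage protein was used without Cas13d. All cultures were HEK293T in DMEM with serum, the labels name no guide RNA for Cas13d, and whether replicates were separate cultures is not stated, so the spread between libraries may be technical. Total RNA of the cleared supernatant was read, so RNA within nanocages is not told apart from other RNA, and fewer releasing cells cannot be told apart from less RNA per cell.

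CBX proteins recognise methylated lysine on histone H3 through an N-terminal chromodomain. The Polycomb branch reads the mark left by Polycomb repressive complex PRC2 and is a subunit of PRC1, which keeps developmental genes silent. The heterochromatin branch, also known as HP1, reads the mark of the SUV39H methyltransferases and dimerises through a further fold, the chromoshadow domain, to compact repeats and other silent chromatin.

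The chromodomain is shared by both branches, yet the bases that encode it differ. The coding bases of its conserved core, 18 codons long, are shown because they let the base composition of the messages be compared over the same protein fold. They were read 5′ to 3′ from the GENCODE 29 transcripts (GRCh38), with capitals marking each codon position 3 that is G or C.
CBX6: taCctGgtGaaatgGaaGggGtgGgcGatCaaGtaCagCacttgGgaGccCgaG
CBX7: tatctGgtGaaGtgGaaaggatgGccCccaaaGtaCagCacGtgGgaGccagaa
CBX5: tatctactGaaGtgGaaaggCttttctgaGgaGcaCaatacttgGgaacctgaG
CBX1: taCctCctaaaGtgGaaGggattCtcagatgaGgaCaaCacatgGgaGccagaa
CBX3: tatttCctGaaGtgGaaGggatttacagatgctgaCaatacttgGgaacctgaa
CBX6 has G or C at position 3 of 16 of the 18 codons, CBX7 at 12, CBX1 at 11, CBX5 at 9 and CBX3 at 7. CBX2 and CBX8, whose bases are not printed here, have it at 16 and 14. CBX6 and CBX3 share 10 of 18 residues and 32 of 54 bases in this core, against 16 residues and 42 bases for CBX6 and CBX7. Shared bases did not divide cleanly by branch. CBX1 shares 40 bases with CBX8 of the other branch and 40 with CBX5 of its own. CBX2 and CBX6, both Polycomb, share 37, and CBX1 and CBX7, of different branches, share 38.

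Libraries held 5097332 and 4863449 gene counts in EPN24-Cas13d, against 1830860 and 1903492 in EPN24. Values below are CPM, counts scaled to library size times a TMM factor. The factor was 0.820 and 0.821 in EPN24-Cas13d and 1.29 and 1.15 in EPN24, so these CPM are not plain shares of a library. The scaling sets the 0 of every log2 fold change. The median over all tested genes was -0.96 with TMM and -1.53 with total counts, which do compare shares. A floor of 3 counts came to 0.721 and 0.755 CPM for EPN24-Cas13d, and to 1.34 and 1.42 CPM for EPN24, and floors and intervals cover counting error only. Synthetic ERCC RNA, added equally before extraction, took 1.73% and 1.66% of counts in EPN24-Cas13d, against 19.6% and 20.9% in EPN24. The 6 markers fixed for HEK293T, such as vimentin, were all detected in both groups, at a summed 2045 and 2051 CPM in EPN24-Cas13d and 322 and 338 CPM in EPN24. Vimentin alone made up 1804 and 1820 CPM of that sum in EPN24-Cas13d and 125 and 157 CPM in EPN24, while PAX2 and NEFM were lower in both EPN24-Cas13d libraries than in either EPN24 library. The 9 markers of liver, blood and fibroblasts summed to 23.6 and 30.5 CPM in EPN24-Cas13d and 69.1 and 66.8 CPM in EPN24, with 2 of 9 at 0 in each group. Their part in the results was not tested.

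All 7 messages passed the filter on low counts (20476 of 61543 genes did), 5 were called higher in EPN24-Cas13d and 2 lower at an adjusted p under 0.05 (edgeR quasi-likelihood fit over all tested genes, Benjamini-Hochberg). Among all tested genes 80.9% were called, 32.6% higher and 48.2% lower. The groups of libraries did not overlap for any of the 7, as for 91.2% of all tested genes. The set counts as selected on the log2 fold changes of this contrast, since CBX6 was already known as one of its large increases, so these counts and the fold changes below describe the messages and are no test of them.

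**Figure D1:**
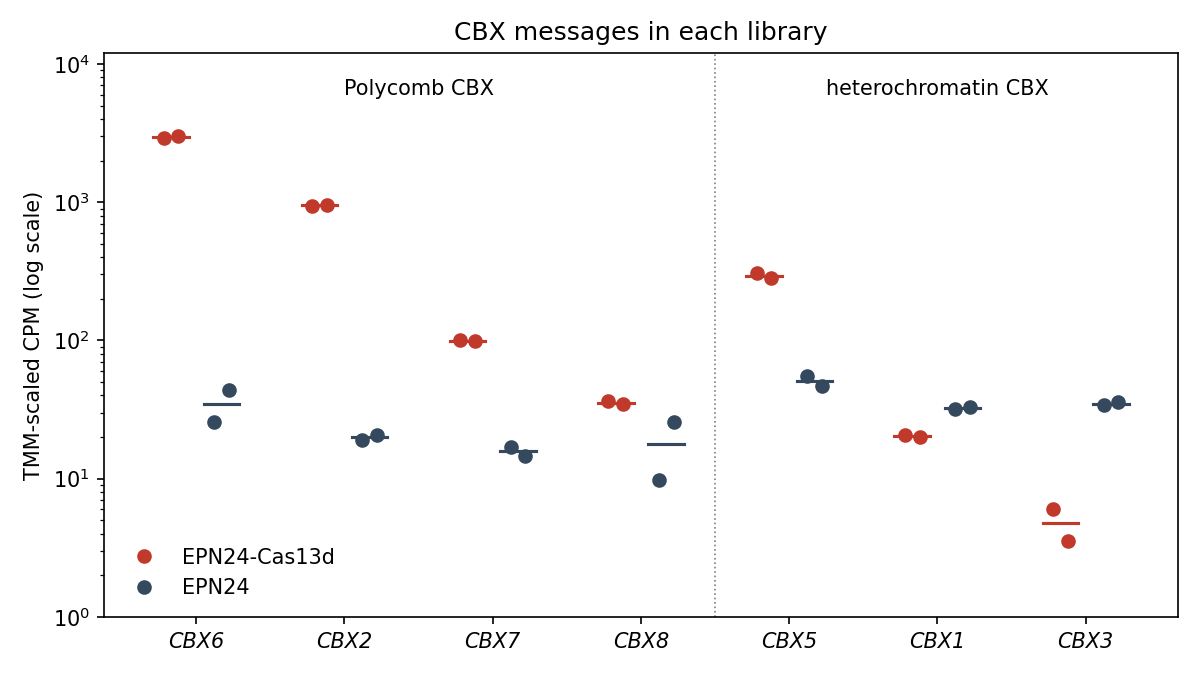
TMM-scaled CPM (log axis) of each CBX message in the 2 EPN24-Cas13d libraries (red, left of each pair) and the 2 EPN24 libraries (dark blue), with a bar at each group's mean. CBX6 stands at 2914 and 3015 CPM in EPN24-Cas13d against 25.9 and 43.6 CPM in EPN24, while CBX3 is lower in EPN24-Cas13d.

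The Polycomb branch was the abundant one in EPN24-Cas13d supernatant, through CBX6 and CBX2. CBX6 (ENSG00000183741.12, chromosome 22, 38861422 to 38872249, minus strand, GRCh38) had 12124 and 11978 counts in EPN24-Cas13d, against only 58 and 92 in EPN24. In CPM these were 2914 and 3015 in EPN24-Cas13d, against 25.9 and 43.6 in EPN24, an 85.4-fold ratio of means. Its log2 fold change was 6.42 with an approximate SE of 0.16, the 38th highest of 20476, and over the 4 pairings of an EPN24-Cas13d with an EPN24 library the log2 ratio ran from 6.06 to 6.86. The EPN24 libraries differed from each other more than the EPN24-Cas13d libraries did, and neither came near the other group.

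CBX2, the chromobox protein best known for compacting nucleosomes, was next (ENSG00000173894.11, chromosome 17, 79778148 to 79787983, plus strand). It had 946 and 950 CPM in EPN24-Cas13d and 19.2 and 20.8 CPM in EPN24. The log2 fold change of 5.57 (SE 0.14) ranked 69th, and its 4 library pairings lay between 5.51 and 5.63, the tightest spread of the 7 except that of CBX1. CBX7, the Polycomb reader prominent in embryonic stem cells, was far lower in level (ENSG00000100307.13, chromosome 22, 39120167 to 39152680, minus strand). It had 100.0 and 99.7 CPM in EPN24-Cas13d, against 16.9 and 14.7 CPM in EPN24, with a log2 fold change of 2.65 (SE 0.21). An annotated lncRNA on the opposite strand (ENSG00000279833) shares 1338 exon bases with CBX7 and had 103.5 and 94 counts in EPN24-Cas13d, against 8.5 and 7 in EPN24, so with the strand setting unknown the 2 genes' reads cannot be fully told apart.

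CBX8, also a PRC1 subunit of the Polycomb branch, differed little and irregularly (ENSG00000141570.11, chromosome 17, 79792132 to 79801683, minus strand, beside CBX2). It had 36.5 and 34.5 CPM in EPN24-Cas13d and 9.81 and 25.6 CPM in EPN24, where they rest on 22 and 54 counts. The EPN24 libraries were thus further apart than the nearest libraries of the 2 groups. Its log2 fold change of 1.01 (SE 0.34) became 0.33, not called, without EPN24 replicate 1 and 1.78 without EPN24 replicate 2. The call was also lost with total-count scaling, the DESeq2 Wald test, counts halved and background subtracted. The sign turned to -0.19 under the stricter filter and to -0.05 with the GC trend removed, neither called. With the GC trend removed the median over the tested genes was -0.62. The stricter filter lowered the log2 fold change of every CBX message, CBX6 to 5.22, while the median over its tested genes was 0.05, against -0.96 under the first filter.

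The heterochromatin branch went both ways. CBX5, which encodes HP1 alpha (ENSG00000094916.16, chromosome 12, 54230942 to 54280133, minus strand), had 307 and 282 CPM in EPN24-Cas13d, against 55.3 and 46.9 CPM in EPN24. Both EPN24-Cas13d libraries were far above both EPN24 libraries, and the log2 fold change was 2.52 (SE 0.15), close to that of CBX7. A miRNA gene inside its exons, MIR3198-2, shares 80 bases with it and was counted 27 and 13 times in EPN24-Cas13d and 0 and 3 times in EPN24.

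CBX1, HP1 beta, had the log2 fold change nearest 0 in the TMM-scaled fit (ENSG00000108468.15, chromosome 17, 48070052 to 48101478, minus strand). It had 20.7 and 20.1 CPM in EPN24-Cas13d and 31.7 and 33.1 CPM in EPN24, a log2 fold change of -0.67 (SE 0.25). Though called lower, it ranked 9670th from the top of 20476. It lay above the median of all tested genes, -0.96, but below that of protein-coding tested genes, -0.4. Replicates were nearly equal within each group, but the call was lost without EPN24-Cas13d replicate 1 (-0.62) or replicate 2 (-0.58). It was also lost with a replicate block (-0.67), with the DESeq2 Wald test, without a filter and with the GC trend removed. CBX8 was nearer 0 than CBX1 under the stricter filter (-0.19 against -1.87) and with the GC trend removed (-0.05 against -0.41).

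CBX3, HP1 gamma, found in euchromatin as well as heterochromatin, was the lowest message of the 7 in EPN24-Cas13d (ENSG00000122565.19, chromosome 7, 26201162 to 26213607, plus strand). It had 6.01 and 3.52 CPM, from 25 and 14 counts, in EPN24-Cas13d, against 33.9 and 36.0 CPM, from 76.5 and 76 counts, in EPN24. The 7.33-fold lower mean corresponded to a log2 fold change of -2.86 (SE 0.35), and the library pairings spanned -3.35 to -2.50. CBX3 starts head to head with HNRNPA2B1, an abundant RNA-binding protein gene on the other strand, and shares 368 exon bases with it. HNRNPA2B1 itself had 92 and 81.5 counts in EPN24-Cas13d, against 586.5 and 610 in EPN24, so its reads could enter the CBX3 count in either group. How far they do was not tested.

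The order of the 7 messages by level, compared as CPM per kb of exon, was different in the 2 groups. In EPN24-Cas13d the mean level per kb was 371 ± 8.87 for CBX6, 167 ± 0.464 for CBX2, 19.6 ± 1.16 for CBX5, 13.4 ± 0.0313 for CBX7, 8.61 ± 0.353 for CBX8, 6.70 ± 0.125 for CBX1 and 0.985 ± 0.363 for CBX3 (SD, n = 2), and no neighbours in this order overlapped. In EPN24 it was 10.6 ± 0.342 for CBX1, 7.22 ± 0.304 for CBX3, 4.34 ± 1.56 for CBX6, 4.29 ± 2.7 for CBX8, 3.53 ± 0.206 for CBX2, 3.40 ± 0.397 for CBX5 and 2.12 ± 0.215 for CBX7 (SD, n = 2). There CBX6, CBX8, CBX2 and CBX5 overlapped with their neighbours in the order, while CBX1, CBX3 and CBX7 stood apart from theirs. The highest level per kb exceeded the lowest 294 and 518 times in EPN24-Cas13d, against 4.58 and 5.54 times in EPN24.

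Summed by branch, the Polycomb messages reached 560.03 ± 8.95 CPM per kb in EPN24-Cas13d and 14.3 ± 4.26 in EPN24, while the heterochromatin messages reached 27.3 ± 1.64 in EPN24-Cas13d and 21.3 ± 0.249 in EPN24 (SD, n = 2). The ratio of Polycomb to heterochromatin level was 19.5 and 21.7 in the EPN24-Cas13d libraries, against 0.534 and 0.806 in the EPN24 libraries. Without CBX6 and CBX2 it was 0.783 and 0.832 in EPN24-Cas13d and 0.220 and 0.381 in EPN24, so most of the branch difference in level lay in those 2 messages. The median log2 fold change was 4.11 for the Polycomb and -0.67 for the heterochromatin messages, a difference of 4.77 that ran from 4.71 to 4.86 over the 4 library pairings and was 3.20 with the GC trend removed. With so few members these medians rest on CBX2, CBX7 and CBX1, and the range over pairings does not cover the spread of members. Members ran from 1.01 to 6.42 in the Polycomb branch and from -2.86 to 2.52 in the heterochromatin branch, so CBX5 exceeded CBX8.

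**Figure D2:**
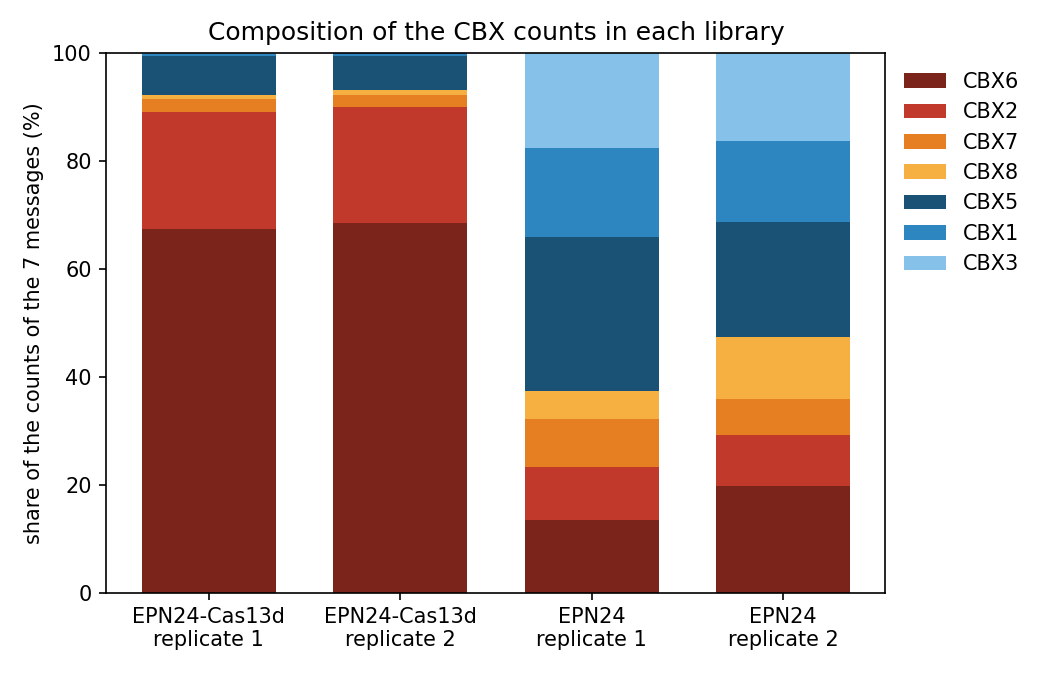
Share (%) of each message in the summed counts of the 7 CBX messages, one stacked bar per library, with EPN24-Cas13d on the left. CBX6 and CBX2 fill most of both EPN24-Cas13d bars, while CBX5 is the largest part of both EPN24 bars. Counts are not divided by exon length, 15038 bp for CBX5 and 3044 bp for CBX1. In CPM per kb, CBX5 was at 3.40 and CBX1 at 10.6 in EPN24.

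CBX6 alone took 67.3% (95% exact binomial interval 66.6 to 68.0) and 68.4% (67.8 to 69.1) of the CBX counts in the EPN24-Cas13d libraries. In the EPN24 libraries its share was 13.4% (10.3 to 17.0) and 19.7% (16.2 to 23.7). CBX3 took 0.139% (0.0898 to 0.205) and 0.0800% (0.0437 to 0.134) in EPN24-Cas13d, against 17.7% (14.1 to 21.5) and 16.3% (13.1 to 20.0) in EPN24. These shares rest on 18015.5 and 17500.0 counts in EPN24-Cas13d but only 433 and 466 counts in EPN24, and the intervals are wider there.

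Scaled to ERCC counts, which sets RNA per volume of supernatant side by side, the picture for the heterochromatin branch changed. ERCC scaling raised the median over all tested genes by 3.34 on the log2 scale. With it 6 of the 7 messages were called higher and none lower, while 60.7% of all tested genes were called, 58.4% higher and 2.33% lower. CBX6 had a mean of 140.7 counts per 1000 ERCC counts in EPN24-Cas13d and 0.157 in EPN24, a log2 fold change of 9.80. CBX1 turned to 2.69, between the median of all tested genes under this scaling, 2.38, and that of protein-coding tested genes, 2.94. CBX3 turned to 0.49 and was not called, with a mean of 0.225 counts per 1000 ERCC counts in EPN24-Cas13d and 0.162 in EPN24. CBX2 reached 8.93, CBX7 6.01, CBX5 5.88 and CBX8 4.40. The authors' deposited table gives log2 fold changes of 9.78 for CBX6, 8.90 for CBX2, 5.98 for CBX7, 5.84 for CBX5, 4.40 for CBX8, 2.66 for CBX1 and 0.45 for CBX3, values that lie within 0.05 of the ERCC-scaled ones.

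**Figure D3:**
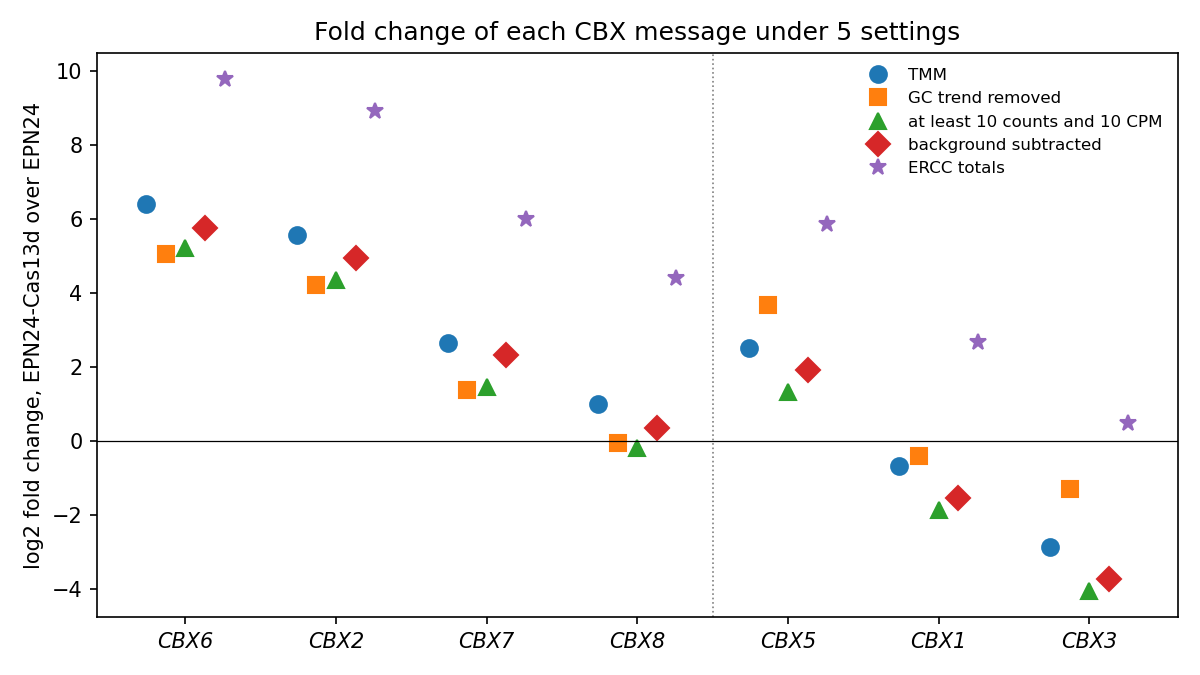
Log2 fold change of EPN24-Cas13d over EPN24 for each CBX message under TMM scaling, with the GC trend removed, under the stricter filter of 10 counts and 10 CPM, with background subtracted and with ERCC totals. CBX6 and CBX2 are the highest in all 5 settings, CBX8 crosses 0, and CBX1 and CBX3 are above 0 with ERCC totals only.

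A low background of reads was present in EPN24, and some messages were near it. The 361 olfactory receptor genes, which kidney-derived cells are not known to use, had 0.179 and 0.141 counts per kb in EPN24-Cas13d, against 1.85 and 1.44 in EPN24. CBX7, the nearest to it in EPN24, had 5.16 and 4.15 counts per kb there, and CBX1, the farthest, 23.3 and 23.0. With that density subtracted from every gene, CBX6 had a log2 fold change of 5.75, CBX2 of 4.94, CBX7 of 2.33, CBX5 of 1.92, CBX1 of -1.53 and CBX3 of -3.73, while the median of all tested genes was -0.11.

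The branches differ in base composition. In the longest GENCODE transcript, the GC content was 59.8% for CBX6, 59.7% for CBX2, 59.2% for CBX7 and 57.5% for CBX8, against 47.6% for CBX1, 41.8% for CBX5 and 39.5% for CBX3. At codon position 3 it was 81.8% for CBX6 and 28.8% for CBX3. The 3′ UTR also differed, with 57.2% GC over 4759 bases in CBX6 and 32.4% over 1148 bases in CBX3. CBX5 is the exception in length, with a 3′ UTR of 10815 bases behind a coding sequence of only 576 bases.

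Over all tested genes the log2 fold change went up with GC content, and the members were set beside that trend. Tested genes with a known transcript (97.3%) were divided into 10 bins of equal size by GC, and the median log2 fold change was -3.09 in the lowest bin and 2.07 in the highest. CBX6, CBX2 and CBX7 fall in bin 9, where the median was 1.51 and 57.2% of genes were called higher. CBX6 at 6.42 and CBX2 at 5.57 lay well above that median, and CBX7 at 2.65 was nearer. CBX8 at 1.01 was close to the 0.90 of its bin, CBX1 at -0.67 to the -0.90 of its bin, and CBX3 at -2.86 to the -2.50 of its bin. CBX5 at 2.52 lay above its bin's median of -1.87, in a bin of 1992 genes where 14.2% were called higher. After the GC trend was removed, CBX6 had 5.06, CBX2 4.22, CBX5 3.68, CBX7 1.37 and CBX3 -1.30. The median over the genes of that fit was -0.62. In that fit 4 members were called higher and 1 lower, while 70.7% of its genes were called, 30.1% higher and 40.5% lower.

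**Figure D4:**
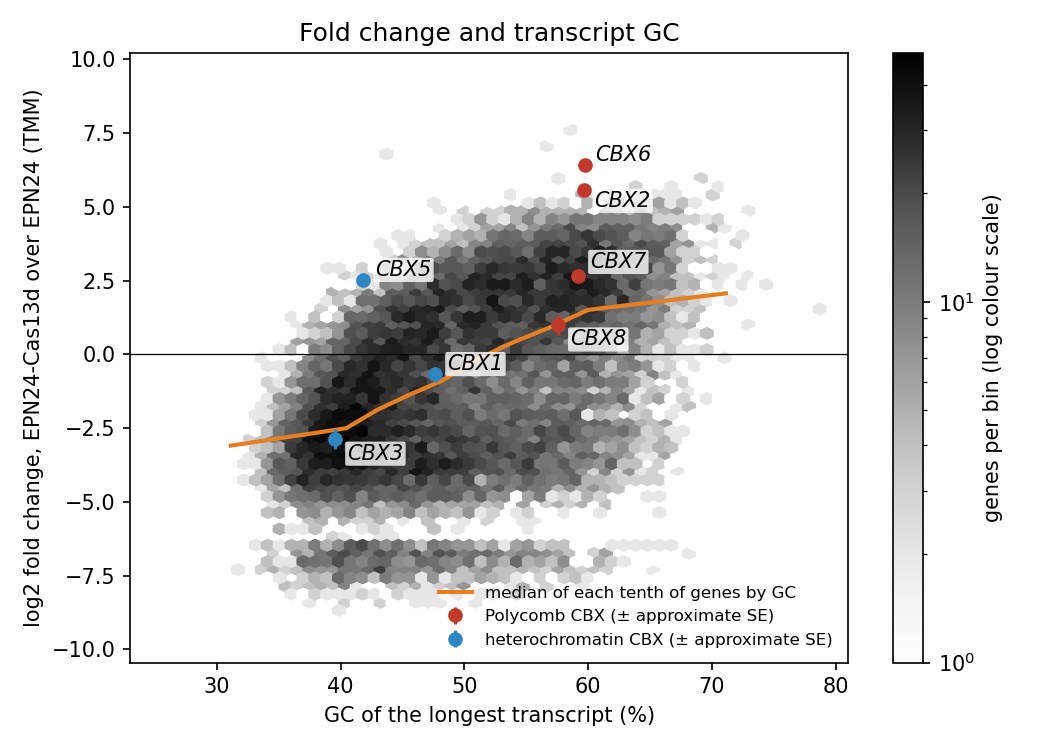
Log2 fold change (TMM) against GC content of the longest transcript for tested genes (grey hexagons, log colour scale), with the median of each of 10 GC bins (orange) and the CBX messages (red and blue, ± approximate SE). CBX8, CBX1 and CBX3 lie near the orange line, while CBX6, CBX2 and CBX5 lie above it.

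Reads of CBX pseudogenes were scarce. The 13 annotated pseudogenes of CBX1, CBX3 and CBX5 together had 0 and 7 counts in EPN24-Cas13d, against 16 and 10 in EPN24. The 7 copies of CBX3 held 0 and 5 of these in EPN24-Cas13d, against 10 and 4 in EPN24. The most abundant, CBX5P1 and CBX3P5, were at 0 in both EPN24-Cas13d libraries, and in EPN24 CBX5P1 had 2 and 6 counts and CBX3P5 had 2 and 4. Reads that fit both a pseudogene and its parent may have been split or dropped, so the values of these 3 parents carry that uncertainty.

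The levels closest to CBX6 across the 4 libraries, by Euclidean distance of log2 CPM over 16298 genes, were those of SLC7A5 (distance 0.620), AEN (0.996) and SESN2 (1.03), an amino acid transporter, a nuclease and a sestrin. SLC7A5 had 2211 and 2245 CPM in EPN24-Cas13d and 23.2 and 39.3 CPM in EPN24. Closest to CBX3 were DACH1 (0.154), CEP170 (0.258) and PRPF4B (0.317). DACH1, a transcription factor, had 6.73 and 3.52 CPM in EPN24-Cas13d and 34.3 and 36.9 CPM in EPN24.

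Messages of other PRC1 proteins, some of them from variant forms of the complex, were also called in both directions. Of 22 PRC1 partners, all tested, 11 were higher, 8 lower and 3 not called, beside 32.6% higher and 48.2% lower over all tested genes. Their median log2 fold change was 0.61, beside -0.96 for all tested genes. Among protein-coding tested genes 37.0% were higher and 42.9% lower, with a median of -0.4. With ERCC scaling 16 partners were higher and none lower, beside 58.4% higher and 2.33% lower over all tested genes. PHC2, a polyhomeotic subunit that polymerises PRC1, had 961 and 1010.3 CPM in EPN24-Cas13d and 37.5 and 40.7 CPM in EPN24, a log2 fold change of 4.66 (SE 0.13). SCMH1 followed at 3.44 and BCOR, a corepressor of a variant PRC1, was at 2.32. At the other end stood RNF2, the main ubiquitin ligase of PRC1, with 2.88 and 0.503 CPM in EPN24-Cas13d and 27.7 and 17.0 CPM in EPN24. Its log2 fold change was -3.68, and SCML1 was at -4.17. Neither was called with ERCC scaling (-0.38 for RNF2, -0.89 for SCML1). PHC3, a paralogue of PHC2 named after its value was seen, was at -2.76. RING1, a paralogue of RNF2 also named after its value was seen, was called higher at 1.95. It had 65.6 and 58.4 CPM in EPN24-Cas13d and 18.7 and 13.3 CPM in EPN24.

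PRC2 writes the mark that the Polycomb chromodomain reads. Of 15 listed PRC2 genes 13 were tested, 6 were higher, 5 lower and 2 not called, with a median of 0.29. Among all tested genes 80.9% were called, 32.6% higher and 48.2% lower. With the GC trend removed the balance was 9 higher and 2 lower, beside 30.1% higher and 40.5% lower over the genes of that fit. Under the stricter filter it was 3 higher and 6 lower, beside 4035 higher and 3979 lower of 10051 tested genes. The lower count was 3 without EPN24-Cas13d replicate 1, EPN24-Cas13d replicate 2 or EPN24 replicate 2, and with ERCC scaling 11 were higher and none lower. Over all tested genes ERCC scaling gave 58.4% higher and 2.33% lower. EPOP (3.84) and PHF19 (3.79), both accessory subunits, were the highest under TMM scaling. PHF19 had 221 and 218 CPM in EPN24-Cas13d and 11.6 and 20.4 CPM in EPN24. SUZ12, a core subunit, had 3.36 and 5.03 CPM in EPN24-Cas13d and 19.6 and 45.4 CPM in EPN24, a log2 fold change of -2.94 that turned to 0.45 with ERCC scaling. AEBP2 was at -2.63, or 0.71 with ERCC scaling. The abundant histone-binding pair split, with RBBP7 at 1.06, at -0.14 under the stricter filter and not called with background subtracted (0.29). RBBP4 was at -0.42, a call lost without 3 of the 4 libraries in turn, with no filter, with the DESeq2 Wald test and with the replicate block, and turning to 2.95 with ERCC scaling and to 0.76 with the GC trend removed.

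Partners of the heterochromatin branch were also called in both directions. Of 30 partners, all tested, 16 were higher, 12 lower and 2 not called (median 1.56), beside 32.6% higher and 48.2% lower over all tested genes. With the GC trend removed 18 were higher and 4 lower, beside 30.1% higher and 40.5% lower over the genes of that fit. ERCC scaling gave 24 higher and none lower, beside 58.4% higher and 2.33% lower over all tested genes. TRIM28, the corepressor that recruits HP1 to zinc finger targets, had 2155 and 2216 CPM in EPN24-Cas13d and 87.4 and 62.5 CPM in EPN24, a log2 fold change of 4.86 (SE 0.14). SUV39H1, a writer of the HP1 mark, was at 3.94, and the DNA methylation genes UHRF1 and DNMT1 were at 3.70 and 2.93. ATRX, a chromatin remodeller of repeats, had 6.25 and 4.03 CPM in EPN24-Cas13d and 57.1 and 62.0 CPM in EPN24, a log2 fold change of -3.52, or -0.17 and not called with ERCC scaling. SENP7 was at -3.65 on 2 and 4 counts in EPN24-Cas13d, was not called without EPN24 replicate 1 (-2.75) or with the GC trend removed (-1.53), and was at -0.40 and not called with ERCC scaling. SUV39H2, named after its value was seen, was at -3.49 although it encodes a close paralogue of SUV39H1.

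In these 3 lists, as over all tested genes, the higher members had the higher median GC. Higher PRC1 partners had a transcript GC of 45.7% to 61.6% and lower ones of 33.3% to 40.6%. Higher PRC2 genes had 42.0% to 63.9% and lower ones 33.0% to 41.6%, and higher heterochromatin partners had 48.3% to 66.1% and lower ones 35.2% to 41.5%. Among all tested genes the median GC was 55.7% for higher and 44.8% for lower genes. The medians of higher and lower genes were 54.9% and 38.6% for PRC1 partners, 54.2% and 38.0% for PRC2 genes, and 54.7% and 40.1% for heterochromatin partners. Among the CBX members, CBX5 was called higher at 41.8% GC and CBX1 lower at 47.6%.

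**Figure D5:**
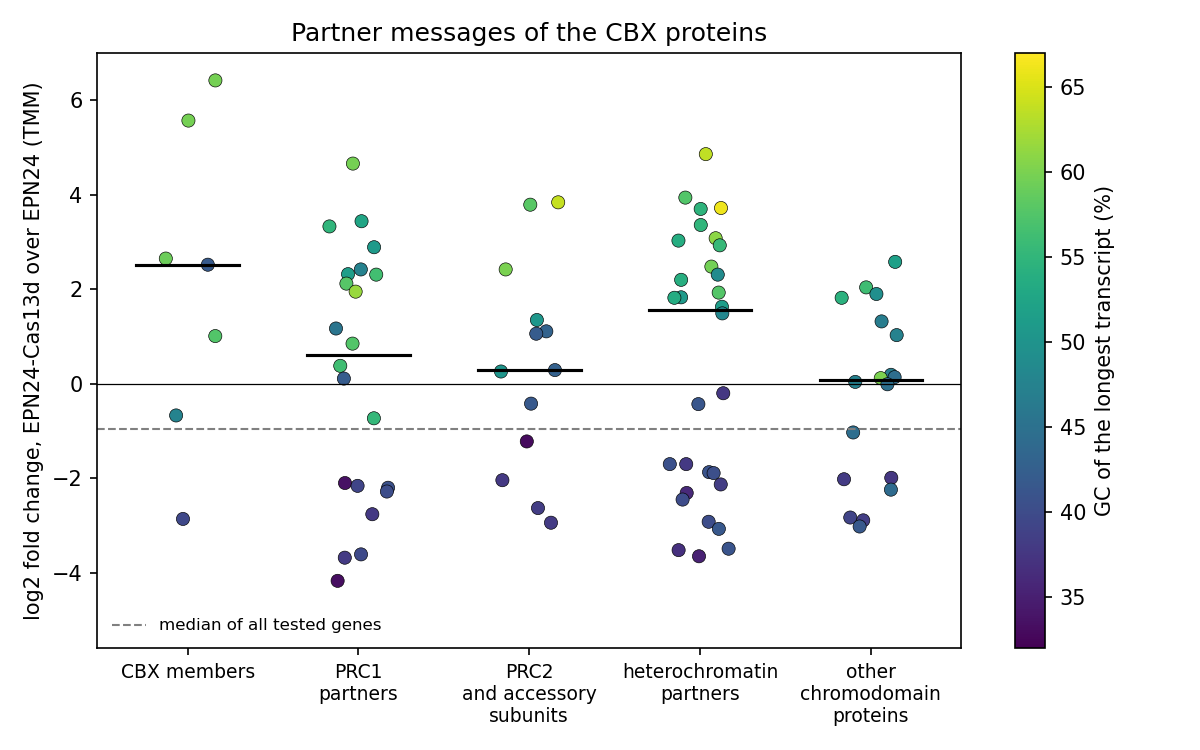
Log2 fold change (TMM) of the CBX members and of the tested genes of each partner list, coloured by transcript GC, with each list's median (bar) and the median of all tested genes (dashed, -0.96). Dark points of low GC lie at the bottom of the partner lists, and CBX5 is the only dark point above 0 among the CBX members.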

How the data were processed

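RNA of HEK293T culture supernatant was sequenced in 2 EPN24-Cas13d and 2 EPN24 libraries, grouped by sample title. The submitters' processing notes name Trim Galore 0.6.7, STAR 2.7.10a, featureCounts 2.0.1, DESeq2 1.36.0 and builds hg38 and GRCh38. No source used here gives the annotation release, the strand setting or how multi-mapping reads were counted. As deposited, the tables hold expected counts per gene (with fractions, not normalized) and the exon length in bp, an other unit. The authors' deposited DESeq2 table holds a mean normalized signal, log2 fold changes, a Wald score and p-values, and paired IDs with symbols.

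Of 61640 rows, 5 pieces of a broken row were left out, leaving 61543 genes and 92 ERCC transcripts. Counts were rounded, filtered with filterByExpr, TMM-scaled and fitted with edgeR 4.0.16 under R 4.3.3 (robust quasi-likelihood, Benjamini-Hochberg, threshold 0.05). Dividing the size of a log2 fold change by the square root of its F gave the approximate SE. The group fit was also run on simulated counts in which few genes differed, as many up as down. Most tested genes were called in the real data, so that run does not cover them. The ERCC, GC and background steps were not simulated. Replicates differed beyond counting noise (chi-square per degree of freedom 2.47 in EPN24-Cas13d and 3.56 in EPN24). Alternatives covered scaling, filters, DESeq2 1.42.0, a replicate block, each library left out, counts halved, a loess GC trend removed and olfactory receptor background subtracted. GC is that of the longest GENCODE 29 transcript, matched on the ID without version. The members and lists were chosen with earlier results of these data known. Named list genes are the 2 highest and 2 lowest log2 fold changes and the 3 most abundant, with a prior count of 2 for distances.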

Additional observations from a re-analysis of the deposited data

How the results depend on the processing

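CBX6, CBX2, CBX7 and CBX5 kept their sign and call under all alternatives run, and CBX3 under all but ERCC scaling (0.49). Leaving out each library in turn gave 13291 to 14495 genes called (6107 to 6617 higher, 6809 to 8361 lower), 6 to 7 CBX members called (4 to 5 higher, 1 to 2 lower), -0.84 to -0.58 for CBX1 and 0.33 to 1.78 for CBX8. PRC2 genes called lower then numbered 3 to 5, and SMARCC1 lay between -0.04 and 0.38. Total-count scaling put the median over all tested genes at -1.53 and gave 0.46 for CBX8, -0.38 for SMARCC1 and 10 other chromodomain genes lower. ERCC scaling gave 11960 genes higher and 477 lower, 0 CBX members lower, 2.69 for CBX1, 0 genes lower in all 4 lists, and 11 PRC2 and 14 other chromodomain genes higher. It turned RBBP4 to 2.95, AEBP2 to 0.71, SUZ12 to 0.45, CHD9 to 0.48 and MORF4L1 to 0.34. With no filter 1 CBX member was lower, CBX1 was at -0.31 and 3 PRC2 genes were lower, while the median over the tested genes was -2.55. The stricter filter tests fewer genes, and their median log2 fold change was 0.05, against -0.96 under the first filter. It called 8014 (4035 higher, 3979 lower), with CBX8 at -0.19, RBBP7 at -0.14, SMARCC1 at -1.02, 3 PRC2 genes higher and 11 other chromodomain genes lower. The DESeq2 Wald test gave 1 CBX member lower, 0.99 for CBX8, -0.69 for CBX1 and 3 PRC2 genes lower. Halved counts gave 0.62 for CBX8 and -0.20 for SMARCC1. Removing the GC trend gave 1 CBX member lower, -0.05 for CBX8, -0.41 for CBX1, 0.76 for RBBP4, a branch difference of 3.20, and 2 PRC2 and 4 heterochromatin genes lower. Subtracting background gave 11032 genes called (5722 lower), 0.35 for CBX8, -0.74 for SMARCC1 and a branch difference of 5.17. The causes were not tested.

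With the replicate block 15041 genes were called and 1 CBX member was lower, CBX1 losing its call at -0.67. Libraries share only a number in the labels, and the deviations of same-numbered libraries had a correlation of -0.00408. Few counts limit CBX3 in EPN24-Cas13d (25 and 14) and the CBX messages in EPN24 (22 to 124 counts each).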

Other observations

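Messages of other proteins with a chromodomain or a related fold, among them the CHD remodellers, were called higher at a share near that of all tested genes. Of 18 such messages, all tested, 6 were higher in EPN24-Cas13d, 6 lower and 6 not called at an adjusted p under 0.05 (edgeR, Benjamini-Hochberg), with a median log2 fold change of 0.08, beside 32.6% higher and 48.2% lower over all tested genes. The split was 5 higher and 10 lower with total counts, 4 and 11 under the stricter filter, and 5 and 9 with background subtracted. Over all tested genes it was 5559 higher and 11161 lower of 20476 with total counts. It was 4035 and 3979 of 10051 under the stricter filter, and 5310 and 5722 of 15663 with background subtracted. CHD4 and CHD3, the ATPases of the NuRD complex, were highest, CHD4 with 315 and 302 CPM in EPN24-Cas13d and 53.5 and 49.2 CPM in EPN24 (2.58, SE 0.14) and CHD3 at 2.04. CHD8 was at 1.90 and CHD2 at 1.32, the call of CHD2 being lost under the stricter filter (0.12). MORF4L1, which reads a mark of transcribed gene bodies, had 9.13 and 10.6 CPM in EPN24-Cas13d and 78.1 and 81.9 CPM in EPN24 (-3.02, SE 0.23, or 0.34 with ERCC scaling), and CHD9 was at -2.89, or 0.48 with ERCC scaling. SMARCC1, the most abundant of the list in EPN24, had 350 and 291 CPM in EPN24-Cas13d and 262 and 299.7 CPM in EPN24 and was not called (0.19). With ERCC scaling 14 of the 18 were higher and none lower, beside 58.4% higher and 2.33% lower over all tested genes. The higher messages had a transcript GC of 46.8% to 56.1% and the lower ones of 37.5% to 44.1%.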
